A study of Mus musculus with 4 samples.

Results

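Teneurins, latrophilins and FLRT proteins form one adhesion system at synapses, and 10 of its genes were followed here: Tenm1, Tenm2, Tenm3 and Tenm4, Adgrl1, Adgrl2 and Adgrl3, and Flrt1, Flrt2 and Flrt3. They were selected by gene symbol, 10 of the 31053 gene rows that each library held, in nuclei chosen by their count of unique molecular identifiers (UMIs, 500 to 50000), of detected genes (over 200) and by a mitochondrial share under 5%. The series contrasted mice with and without a mutant allele of Csf1r, which encodes a receptor that microglia need to survive. RNA was sequenced from single nuclei of brains of 2-month-old female C57BL/6 mice, either wild-type (WT) or heterozygous for Csf1r (Csf1r+/-, HET), and 2 libraries per genotype were used here. Another library per genotype was not used here. Each library came from 1 mouse, perfused before its nuclei were isolated without detergent and cleared of myelin debris on beads, and was made with 10x Genomics 3′ chemistry. All cells of a HET mouse carry the allele, so that effects arising in microglia and effects arising in other cells cannot be told apart.

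Teneurins are large single-pass membrane proteins that dimerize on one cell and bind latrophilins on the facing cell. Latrophilins, encoded by the Adgrl genes, are adhesion G protein-coupled receptors, and FLRT proteins are leucine-rich-repeat membrane proteins that bind latrophilins and the netrin receptors of the UNC5 family. In the brain the combination of partners on facing neurons takes part in axon guidance and in the choice of synaptic partners, and the genes are best known from neurons of the cortex and hippocampus.

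The filters kept 52132 nuclei, 16114 and 15247 in the WT and 9589 and 11182 in the HET libraries. The median was 5490 and 4636 UMIs per nucleus in WT and 7454 and 6656 in HET. Both HET libraries thus held fewer nuclei, at greater depth, than both WT libraries. Effects of depth or nucleus number therefore cannot be told apart from those of genotype. Between 33 and 68 cell barcodes were shared by any 2 libraries. Clustering, from which the 10 genes were left out, gave 23202 nuclei of excitatory neurons, 6909 of inhibitory neurons, 2377 of oligodendrocytes, 647 of microglia, 454 of endothelial cells, 132 of mural cells (pericytes and smooth muscle) and 99 of oligodendrocyte precursors. A further 13954 neuronal nuclei could be called neither excitatory nor inhibitory, 4329 nuclei were left unnamed, and no cluster met the rule for astrocytes. Csf1r itself, measured in microglia in CPM (the UMIs of a gene scaled to 1000000 UMIs of the class in a library), was at 907 and 883 CPM in the WT libraries and at 611 and 599 CPM in the HET libraries. In all neurons together the order was the reverse at a far lower level, 0.603 and 1.43 CPM in WT against 4.21 and 4.52 CPM in HET, from 60, 102, 332 and 369 UMIs, and the reason was not tested. Below, 4 values given in a row are those of WT replicate 1, WT replicate 2, HET replicate 1 and HET replicate 2, in that order.

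The genes differ widely in size, which bears on how many UMIs nuclear RNA gives for them, so that levels below are compared within a gene and not between genes. In the GENCODE annotation of the mm10 build (GRCm38) the teneurin genes are very long, with Tenm2 at chr11:36006656-37235964 (minus strand, 1229 kb), Tenm1 at chrX:42527866-43429126 (minus, 901 kb), Tenm4 at chr7:96171246-96911093 (plus, 739.85 kb) and Tenm3 at chr8:48227682-48843951 (minus, 616 kb). Adgrl3 lies at chr5:81020138-81825133 (plus, 805.0 kb), Adgrl2 at chr3:148815583-148990555 (minus, 175 kb) and Adgrl1 at chr8:83900105-83941954 (plus, 41.8 kb). Flrt2 lies at chr12:95692226-95785215 (plus, 93.0 kb), Flrt3 at chr2:140650914-140671469 (minus, 20.6 kb) and Flrt1 at chr19:7092001-7105729 (minus, 13.7 kb). None of the 10 overlaps another listed gene on its own strand. Flrt1 and Flrt3 lie opposite the macrodomain genes Macrod1 and Macrod2.

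All 10 genes were read in neurons of both kinds, and 6 of them were higher in excitatory than in inhibitory neurons in each of the 4 libraries. The contrast was steepest for Tenm3, which was the reverse. Tenm3 was at 485, 547, 458 and 505 CPM in excitatory neurons, and at 1062, 1209, 1180.5 and 1296 CPM in inhibitory neurons. The inhibitory values were thus the higher ones in every library, with a log2 ratio of excitatory to inhibitory of -1.25 ± 0.13 (SD, n = 4). Tenm1 was also lower in excitatory neurons, with a log2 ratio of -0.60 ± 0.14.

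Adgrl2 leaned most to the excitatory side. It was at 218, 212, 237 and 191 CPM in excitatory neurons and at 138, 120, 108 and 115 CPM in inhibitory neurons, a log2 ratio of 0.84 ± 0.21 (SD, n = 4). Flrt2 followed, with 464, 340, 300.0 and 409 CPM against 254, 212, 187 and 231 CPM and a log2 ratio of 0.77 ± 0.10. The log2 ratio was 0.43 ± 0.17 for Tenm2, 0.29 ± 0.06 for Tenm4, 0.29 ± 0.06 for Adgrl1 and 0.10 ± 0.06 for Adgrl3. Flrt1 and Flrt3 were close to even, at -0.10 ± 0.05 and -0.15 ± 0.11, below 0 in each of the 4 libraries. Both classes hold many neuron types, whose proportions were not matched between libraries, and the ratios are described without a test because the classes were named on the same nuclei.

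**Figure D1:**
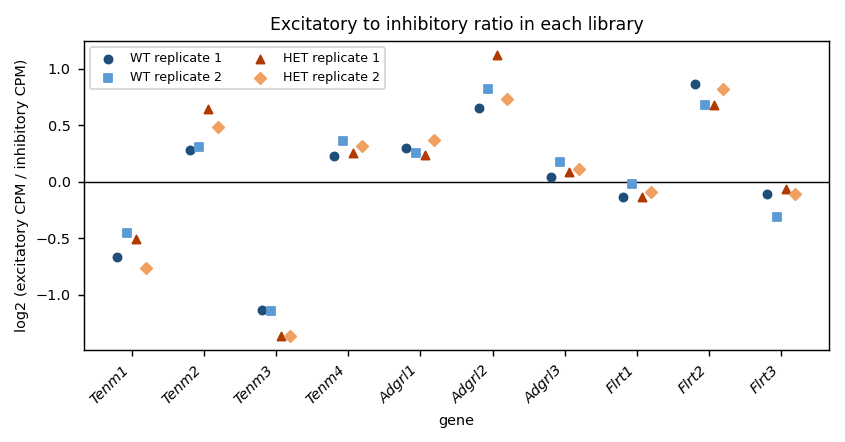
Each point is the log2 ratio of a gene's CPM in excitatory neurons to its CPM in inhibitory neurons in one library, by gene on the horizontal axis, with the 2 WT libraries in blue and the 2 HET libraries in orange. Tenm1, Tenm3, Flrt1 and Flrt3 lie below 0 in all 4 libraries and the other 6 genes above 0 in all 4, with Tenm3 at -1.25 and Adgrl2 at 0.84 on average.

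Within neurons the 10 genes peaked in different types. The 31 neuron types with at least 10 nuclei in every library were either named from markers, and then written with the ending -like, or called by 2 of their leading genes. Tenm1 was the most uneven of the teneurins from type to type, at 15.5-fold between the highest and the lowest type, and Tenm3 varied 13.6-fold, Tenm4 9.87-fold and Tenm2 6.03-fold. Tenm1 was highest in the Six3 and Isl1 cluster, with 2016, 1846, 1393 and 2316 CPM, against a median of 614 CPM over the types. The thalamic-like neurons came next at 1437, 1236, 1105 and 1444 CPM, a range that overlapped that of the first type, and then the Lamp5 interneuron-like nuclei with a mean of 1112 CPM. The upper layer-like neurons, with a mean of 178 CPM, and the Matn4 and Igdcc3 cluster and the Atp10b and Tshz2 cluster, with 125 and 122 CPM, were at the bottom of the order, and their ranges overlapped.

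Tenm2 stood highest in the Atp10b and Tshz2 cluster, the type in which Tenm1 was lowest, with 9989, 8119.6, 9118 and 9489 CPM. All 4 of these values lay above those of the other 30 types. CA1 pyramidal-like neurons of the hippocampus had a mean of 6528 CPM, against a median of 3849 CPM over the types, and the Pde1c and Lgr5 cluster was lowest with 1523 CPM.

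Tenm3 had the sharpest peak relative to the other types. In the Lgr6 and Frmd7 cluster it was at 3018.5, 3763, 2956 and 5163 CPM, 4.96 times the median of 751 CPM, and every one of these values exceeded all values of the other 30 types. The Atp10b and Tshz2 cluster was second with a mean of 1564 CPM. The layer 6 corticothalamic-like neurons were lowest, at 232, 304, 257 and 303 CPM. Tenm4 was spread more evenly, with the Oprk1 and Car3 cluster first at 1488, 1789, 1348 and 1747 CPM and the Drd1 striatal projection-like neurons second at 1513, 1551, 1346 and 1811 CPM, values that overlapped. The Six3 and Isl1 cluster, where Tenm1 was highest, was the lowest for Tenm4 with 212, 174, 67.2 and 192 CPM.

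Among the latrophilins Adgrl2 varied most between types, and the other 2 varied by 2.02-fold (Adgrl1) and 2.63-fold (Adgrl3). Adgrl2 was high in the Matn4 and Igdcc3 cluster, at 278, 317, 314 and 279 CPM, and in layer 4-like neurons, at 294, 299.5, 308 and 236 CPM, values that overlapped. It was lowest in 3 types, with means of 38.0 CPM in Lamp5 interneuron-like, 37.0 CPM in Vip interneuron-like and 27.2 CPM in dentate granule-like nuclei, the last with 24.4, 32.3, 27.9 and 24.2 CPM. Adgrl3 was highest in Drd2 striatal projection-like neurons, with 2266, 2092, 2173 and 2585 CPM, and lowest in the Six3 and Isl1 cluster, with 871, 892, 782 and 919.8 CPM. Adgrl1 was the flattest gene of the 10, between 54.8 CPM in the Six3 and Isl1 cluster and 111 CPM in the Matn4 and Igdcc3 cluster.

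Of the FLRT genes, Flrt2 led in cortical types. It was highest in layer 6 corticothalamic-like neurons, at 563, 484, 405 and 492 CPM, and layer 4-like and upper layer-like neurons also stood among the first 4 types, with means of 452 and 414 CPM. The Col18a1 and Irx2 cluster was among the lowest in Flrt2, with 99.3, 106, 43.0 and 103 CPM. Flrt3 was highest in Drd1 striatal projection-like neurons, at 106, 92.7, 77.1 and 109 CPM, then in Drd2 striatal projection-like neurons at 57.6, 78.8, 94.3 and 94.3 CPM. The dentate granule-like neurons were the third, with a mean of 74.4 CPM and a spread from 48.8 to 109 CPM over 91 UMIs in all. Flrt1 was the least counted gene, highest in the Vip and Tac2 cluster at 44.96, 54.6, 41.4 and 36.5 CPM and lowest in dentate granule-like neurons at 8.07 CPM, from 9 UMIs.

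Few steps in these orders were clear of the spread between libraries. Between neighbors in the order, all 4 values of the higher type exceeded all 4 of the lower in 2 of 30 steps for Tenm1, Tenm3 and Adgrl3, in 1 of 30 for Tenm2, Tenm4 and Adgrl2, and in 0 of 30 for Adgrl1, Flrt1, Flrt2 and Flrt3. The Pearson correlation of log2(CPM + 1) over the 31 types between any 2 libraries was 0.83 or higher for the 4 teneurins, Adgrl2, Adgrl3 and Flrt2, and between 0.35 and 0.74 for the 3 genes with few UMIs or little variation, Adgrl1, Flrt1 and Flrt3. These types share libraries and depth, and the correlations are descriptions.

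**Figure D2:**
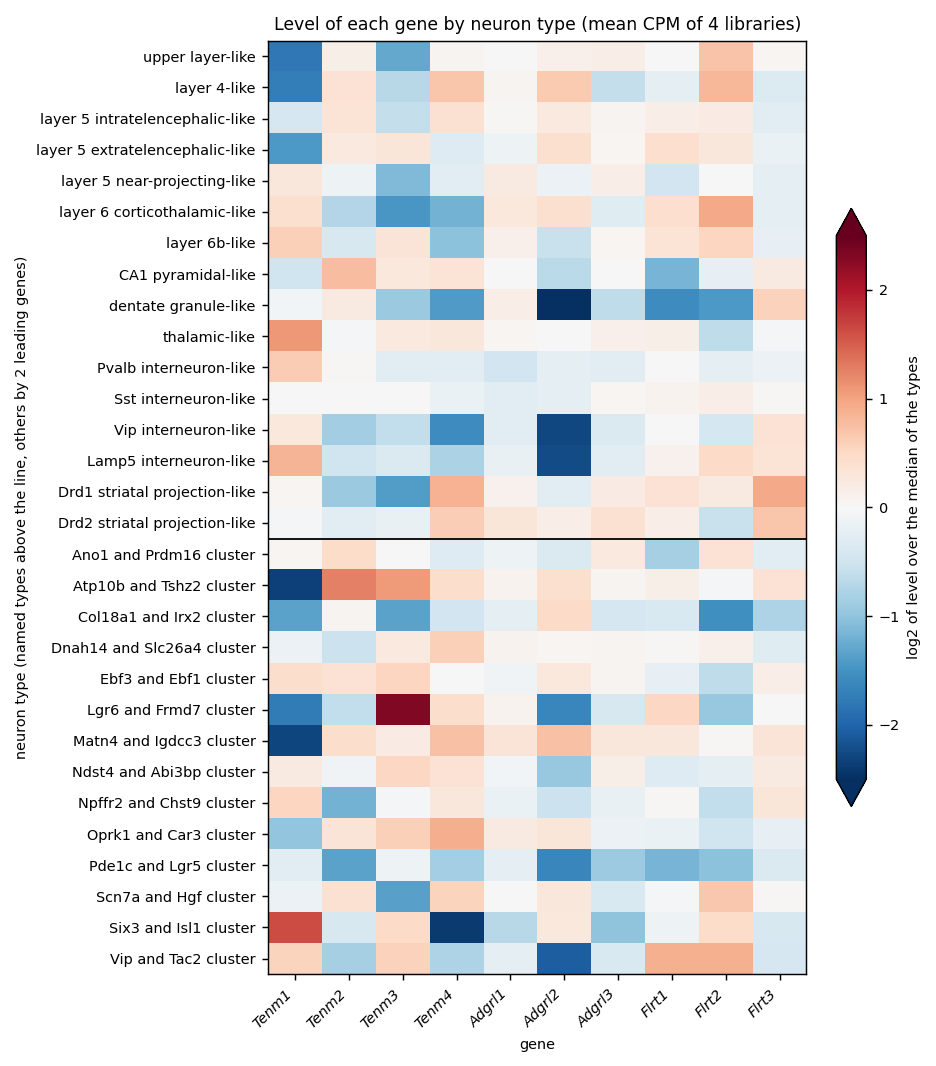
Color shows the log2 of a gene's level in a neuron type (mean CPM of the 4 libraries) over its median across the 31 types, with genes in columns and types in rows (30 of the types are drawn), named types above the line. Tenm3 in the Lgr6 and Frmd7 cluster, at 4.96 times its median, is the darkest red cell, and Adgrl2 in dentate granule-like neurons and in Vip and Lamp5 interneuron-like nuclei is among the darkest blue.

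Across pairs of members the correlations ranged widely. Of 45 pairs, 28 had a correlation above 0 over the 31 types. The highest were 0.59 for Tenm4 with Adgrl3 and 0.55 for Tenm4 with Adgrl1, and the lowest were -0.51 for Tenm1 with Tenm4 and -0.43 for Tenm1 with Tenm2. Both of the highest pairs join Tenm4 and a latrophilin, and the third, at 0.50, joins the latrophilins Adgrl1 and Adgrl3. Other pairs of a teneurin and a latrophilin ran from 0.50 for Tenm2 with Adgrl2 down to -0.42 for Tenm1 with Adgrl1. The pairs of Tenm1 or Tenm3 with a latrophilin were all below 0.

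For 4 of the 10 members the gene with the most similar level over the 31 types lay on the same chromosome, inside, around or near the member. Among 11785 other genes with at least 10 CPM in some type, the closest to Tenm4 was Gm15414 (r = 0.99), which lies inside Tenm4 on the other strand at chr7:96596652-96629069. The closest to Adgrl3 was Gm16054 (r = 0.82), likewise inside it on the other strand at chr5:81791909-81798426, and the closest to Flrt1 was Macrod1 (r = 0.89), whose gene at chr19:7056810-7198057 contains Flrt1 on the other strand. Which strand the counting used is not given in the sources used here. Whether reads of a gene and of its antisense partner were kept apart was not tested. Adgrl2 was different, since its 2 closest genes do not overlap it. They were the noncoding RNA gene Gm30382 (r = 0.96, chr3:149284418-149445301) and the gene Gm5149 (r = 0.93, chr3:149304829-149345840), which lie 294 and 314 kb away on the same chromosome.

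All other closest genes lay on other chromosomes. These were Gm1992 (r = 0.75) and the Xkr4 gene that contains it (0.73) for Tenm1, Tnks1bp1 (0.70) and Prmt7 (0.70) for Tenm2, Dock2 (0.57) and Trdn (0.57) for Tenm3, and Pcsk2 (0.83) with its antisense gene Pcsk2os2 (0.83) for Adgrl1. Ntrk2, the receptor for brain-derived neurotrophic factor, was closest to Flrt2 (0.80) with Lrrc8c second (0.72), and Fbxl16 (0.80) and Wscd2 (0.70) were closest to Flrt3. The second genes were Gm26658 (0.75) for Tenm4, the glutamate receptor gene Grid1 (0.78) for Adgrl3 and Timm13 (0.73) for Flrt1. The 31 types share libraries, depth and the mixture of nuclei that clustering gave them, and no correlation was tested.

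**Figure D3:**
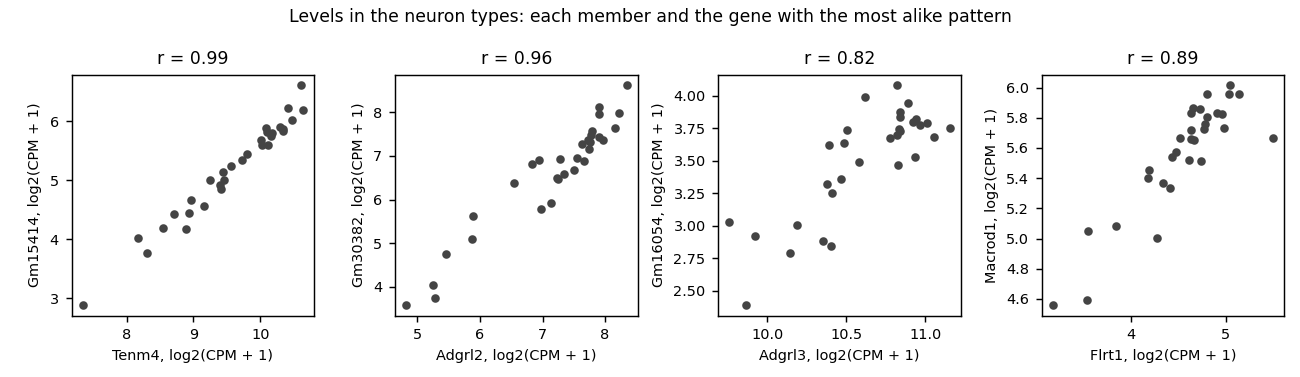
Each point is 1 of the 31 neuron types, with the level of a member on the horizontal axis and that of the gene with the most alike pattern on the vertical axis, both as log2(CPM + 1) of the mean of 4 libraries. The points lie along a line for Tenm4 with Gm15414 (r = 0.99) and Adgrl2 with Gm30382 (r = 0.96), and scatter more for Adgrl3 with Gm16054 (0.82) and Flrt1 with Macrod1 (0.89).

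Outside neurons, each member's level was set against its level in all neurons of the same library and beside a list of 14 genes. These genes, among them Rbfox3, Snap25, Syt1, Grin2b and Meg3, were taken as restricted to neurons, which was not tested for each gene. All 14 were detected in each non-neuronal class and none was at 0 over the 4 libraries. In microglia the summed level of the list was 24.3% and 27.0% of that in neurons in the WT libraries and 11.2% and 14.9% in the HET libraries. In endothelial cells it was 23.5% and 22.2% against 7.75% and 10.1%, in oligodendrocytes 21.2% and 18.6% against 11.5% and 10.99%, and in mural cells 11.3% and 8.37% against 6.25% and 6.53%. In all 4 classes the share was lower in both HET libraries than in both WT libraries. In neurons of WT replicate 1 the sum was 20049 CPM with Meg3 and Snhg11 and 8608 CPM without them. Without these 2 genes the share was 1.11 to 1.22 times that of the full list in microglia and 1.08 to 1.21 times in endothelial cells. It was 1.16 to 1.40 times in oligodendrocytes and 1.01 to 1.20 times in mural cells.

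The teneurins stood at about the level of that list in microglia and endothelial cells. Tenm2 in microglia was at 25.1%, 30.5%, 9.41% and 15.2% of its neuron level, which is 1.04, 1.13, 0.84 and 1.02 times the list in the same library. Over the 4 teneurins and 4 libraries the range was 0.76 to 1.75 times the list in microglia and 0.62 to 1.75 times in endothelial cells. In oligodendrocytes Tenm1 stayed in that range, at 0.72 to 1.06 times the list, while Tenm3 was at 1.70 to 4.19 times. Without nuclei of high doublet scores Tenm3 there was at 1.40, 2.99, 4.19 and 1.44 times the list. Its UMIs then fell from 192, 1199, 373 and 176 to 104, 999, 305 and 59.

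Adgrl2 stood well above that list. In endothelial cells it was at 426, 349, 391 and 366 CPM, or 221%, 186%, 185% and 198% of its level in neurons. That was 9.39, 8.37, 23.9 and 19.6 times the neuron-restricted list, which was itself lower in HET. In mural cells it was at 229, 252, 339 and 266 CPM, 119% to 161% of the neuron level. In microglia it was at 171, 160, 132 and 179.6 CPM, 62.4% to 97.1% of the neuron level and 3.14 to 6.53 times the list, from 33 to 36 UMIs per library. In oligodendrocytes, by contrast, it was at 8.33% to 24.8% of the neuron level, 0.72 to 1.54 times the list. Adgrl3 was at 2.12 to 4.25 times the list in endothelial cells and 4.31 to 6.88 times in mural cells, but at 1.01 to 1.43 times in microglia. Flrt2 was at 4.52 to 9.30 times the list in mural cells. In endothelial cells Flrt2 was at 2.59, 3.16, 7.56 and 10.1 times the list, with 212, 190.5, 149 and 346 CPM. Adgrl1 was at 2.48 to 5.79 times the list in endothelial cells, from 15, 12, 5 and 7 UMIs, and at 1.33 to 4.32 times in microglia, from 9, 11, 11 and 3 UMIs. Flrt1 and Flrt3 had 7 or fewer UMIs per library in both classes and were at 0 in some, so that their shares of the neuron level rest on single counts.

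Oligodendrocyte precursors, 14, 70, 10 and 5 nuclei by library, gave another pattern. Adgrl3 was at 2381, 2115, 2806 and 2260 CPM there, 142%, 121%, 184% and 126% of its neuron level, and Tenm1 at 616, 488, 627 and 659 CPM, 79.8% to 121% of the neuron level. Both were 4.59 or more times the neuron-restricted list in every library. Adgrl2 had 0 UMIs in all 4 libraries among 256790 UMIs, which allows a level of up to 11.7 CPM (3 counts in all, counting error only). With 5 nuclei in HET replicate 2, the genotypes were not compared in this class.

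**Figure D4:**
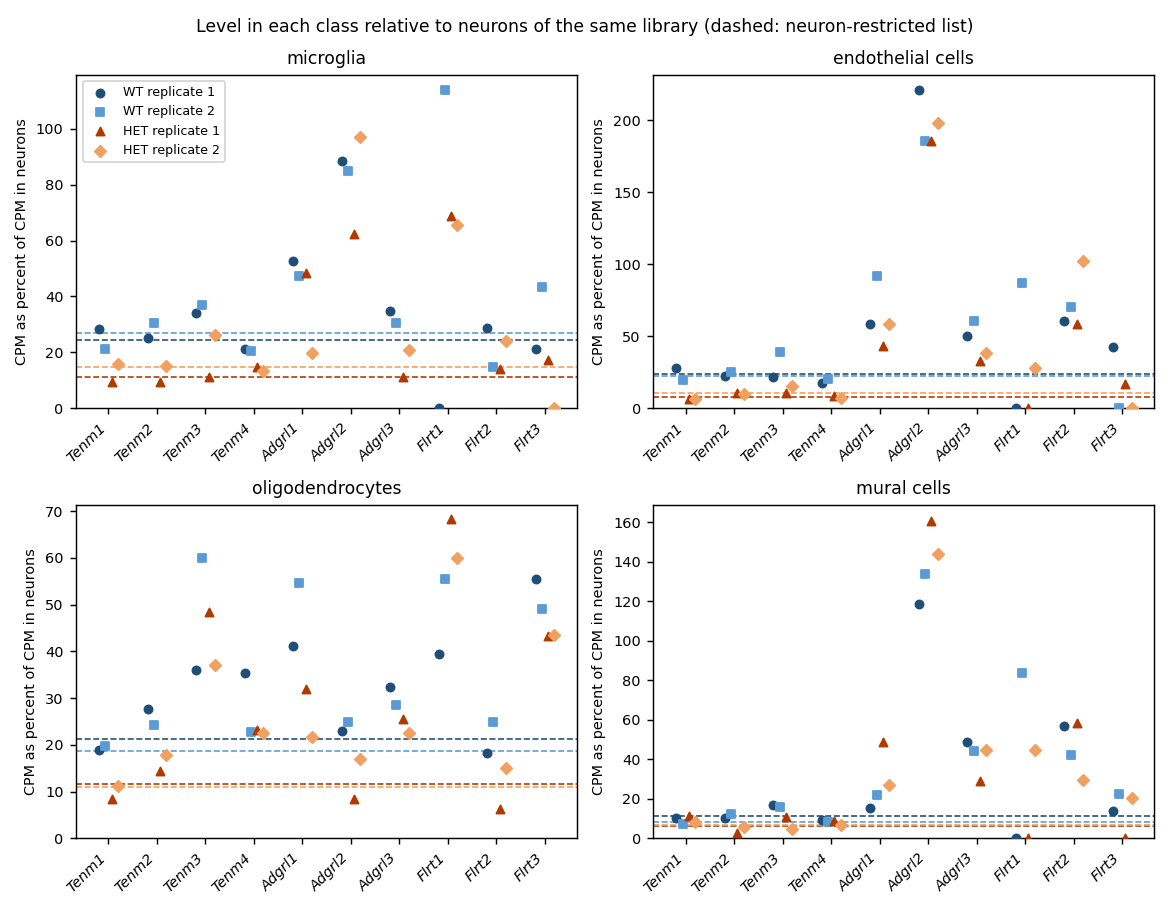
Points give each gene's CPM in a class as a percentage of its CPM in all neurons of the same library, 1 point per library, in microglia, endothelial cells, oligodendrocytes and mural cells. Dashed lines give the same percentage for the 14 neuron-restricted genes, with the WT lines (blue) above the HET lines (orange) in every panel. Teneurins lie near the lines in microglia and endothelial cells, and Adgrl2 lies far above them in endothelial cells, at 185% to 221%, and in mural cells.

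In neurons none of the 10 genes passed, between the genotypes, the threshold that the study used, an unadjusted p under 0.01. UMIs of a class were added up within each library and compared as HET minus WT with edgeR's quasi-likelihood test, with p adjusted by Benjamini-Hochberg over all genes tested. In excitatory neurons 0 of 10 members were called, where 0.24% of 7513 genes were, and 0 of 10 had an unadjusted p under 0.05. The likelihood-ratio test and DESeq2 likewise called 0, and the share of all genes that they called is not given here. In inhibitory neurons 0 of 10 were called, where 0.233% of 6439 genes were, and in the remaining neurons 0 of 10, where 0.0885% of 7914 genes were, again with 0 at an unadjusted p under 0.05. Tenm1 in excitatory neurons, at 507 and 495 CPM (WT) against 401 and 422 CPM (HET), had the smallest p of these 30 tests, with a log2 fold change of -0.25 ± 0.11 (SE) and an edgeR p of 0.070 (adjusted p = 1.0). For the 10 members the log2 fold changes lay between -0.25 and 0.28 in excitatory and between -0.20 and 0.13 in inhibitory neurons, with SE between 0.11 and 0.24. Their medians were -0.01 and -0.02, beside medians over all genes tested of -0.00114 and -0.00209.

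By neuron type, 6 of 305 tests of a member passed the unadjusted threshold and 0 passed an adjusted p of 0.05, while 0.668% of all gene tests in the 31 types passed the first. The 6 lay in 6 different types. Tenm1 was called in 3, all lower in HET. WT stood against HET in the Matn4 and Igdcc3 cluster at 167 and 150.2 against 90.1 and 90.98 CPM, in the Lgr6 and Frmd7 cluster at 267 and 192 against 117 and 156 CPM, and in the Atp10b and Tshz2 cluster at 149 and 157 against 67.9 and 114 CPM. The log2 fold changes were -0.78 ± 0.16, -0.75 ± 0.21 and -0.71 ± 0.21 (SE), with edgeR adjusted p of 0.19, 1.0 and 0.54. These 3 types were among the lowest 4 of the 31 in Tenm1. Called or not, 177 of the 305 log2 fold changes of members were negative, with 27 of 31 for Adgrl1 (median -0.13), 24 of 31 for Tenm1 (-0.11) and 23 of 31 for Flrt2 (-0.16), against 10 of 31 for Flrt3 (0.11) and 9 of 27 for Flrt1 (0.06). As the types come from the same libraries, their signs are not independent and these counts are descriptions. The share of negative fold changes over all genes is not given here.

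The other 3 went both ways. Tenm3 in dentate granule-like neurons was at 272 and 270.4 CPM in WT against 698 and 345 CPM in HET (log2 fold change 0.96 ± 0.30, edgeR adjusted p = 1.0), with the 2 HET libraries far apart. Tenm2 in Drd1 striatal projection-like neurons was at 1804 and 1429.6 against 2644.5 and 2214 CPM (0.58 ± 0.21, edgeR adjusted p = 0.57). Flrt2 in the Npffr2 and Chst9 cluster was at 231 and 183 against 166 and 77.1 CPM (-0.79 ± 0.29, edgeR adjusted p = 0.59). The groups did not overlap in any of the 6, as for 71 of the 305 tests of members and for 29.0% of all gene tests in the 31 types. Leaving out HET replicate 2 raised the number called, and the share of all gene tests called without it is not given here.

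In microglia and endothelial cells most tested members were called lower in HET, and in oligodendrocytes and mural cells 1 member was. The fold change was negative for 6 of 6, 6 of 7, 6 of 6 and 6 of 7 members tested in microglia, endothelial cells, oligodendrocytes and mural cells, and the neuron-restricted list was lower in HET in all 4 classes. The members and the gene lists were chosen with earlier results of these data known, so their counts beside all genes are descriptions. In microglia 6 members passed the filter on low counts (all but Adgrl1, Flrt1, Flrt2 and Flrt3), and 4 of them were lower in HET at the study threshold, where 7.92% of 2980 genes were. Those 4 also had an adjusted p under 0.05, as did 5.57% of genes. Tenm2 was at 1097 and 1141 CPM in the WT and 387 and 735 CPM in the HET libraries, and the fold change was -1.11 ± 0.25 on the log2 scale (edgeR adjusted p = 0.019). Tenm3 was at 252 and 293 against 75.9 and 185 CPM (-1.23 ± 0.31, edgeR adjusted p = 0.028), and Tenm1 at 185 and 129 against 47.9 and 87.1 CPM (-1.35 ± 0.38, adjusted p = 0.045). Tenm1 passed the filter through WT alone, which favors genes that are lower in HET. Adgrl3 was at 579 and 528 against 172 and 376 CPM (-1.15 ± 0.27, edgeR adjusted p = 0.023). Both HET libraries lay below both WT libraries for 5 of the 6 members tested, these 4 and Tenm4, and for 19.2% of all genes tested. Tenm4 did not reach the threshold (-0.68 ± 0.27, edgeR adjusted p = 0.21), and neither did Adgrl2 (-0.20 ± 0.28, adjusted p = 0.84). Among the members tested Adgrl2 stood highest above the list in microglia, also in the WT libraries alone, at 3.65 and 3.14 times. Without HET replicate 1, the library with the lowest level of the list in microglia, the calls were lost. The log2 fold changes fell in size to -0.92 for Tenm1, -0.68 for Tenm2, -0.63 for Tenm3 and -0.64 for Adgrl3. Without HET replicate 2 they were -1.78, -1.62, -1.93 and -1.77 in the same order. Tenm1 was also lost without WT replicate 1 (-1.07) and Tenm3 without WT replicate 2 (-1.09), and DESeq2 called 2 members. The share of all genes called under these alternatives is not given here.

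Counted per nucleus, 71.6% (95% Wilson interval 64.5% to 77.7%) and 72.7% (65.3% to 79.0%) of WT microglia nuclei had a UMI of Tenm2, against 43.2% (36.0% to 50.7%) and 53.9% (45.7% to 61.9%) of HET microglia nuclei. With nuclei thinned to 1000 UMIs, which left out 33 to 67 shallower nuclei per library, the shares were 65.3%, 63.5%, 31.7% and 44.2%. In excitatory neurons 99.0% to 99.5% of nuclei had a Tenm2 UMI before thinning and 88.4% to 92.8% after it, at a median depth of 5635 to 9103.5 UMIs. The median depth of microglia was 1108 and 1307 UMIs in WT and 1453 and 1204 UMIs in HET.

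In endothelial cells 7 members were tested (all but Adgrl1, Flrt1 and Flrt3), 5 were lower in HET at the study threshold, where 7.11% of 3838 genes were, and 4 had an adjusted p under 0.05, where 5.16% of genes did. Tenm1 was at 180.0 and 119 CPM in the WT and 31.3 and 34.6 CPM in the HET libraries, the latter from 4 and 5 UMIs, with a log2 fold change of -2.34 ± 0.47 (edgeR adjusted p = 0.0016). Tenm1 passed the filter on low counts through WT alone, and such a passage favors genes that are lower in HET. Tenm2 was at 976 and 928 against 431 and 484 CPM (-1.17 ± 0.24, edgeR adjusted p = 0.0019), Tenm4 at 155 and 198 against 70.5 and 69.1 CPM (-1.39 ± 0.38, adjusted p = 0.022) and Tenm3 at 158 and 309 against 70.5 and 111 CPM (-1.33 ± 0.37, adjusted p = 0.026). Adgrl3, at 834 and 1047 against 501 and 691 CPM, passed the unadjusted threshold alone (-0.75 ± 0.24, edgeR adjusted p = 0.062). Both HET libraries lay below both WT libraries for these 5 of the 7 members tested, and for 18.3% of all genes tested. Adgrl2 and Flrt2 had log2 fold changes of -0.17 ± 0.26 and 0.19 ± 0.32 (edgeR adjusted p = 0.87 and 0.89). In the WT libraries Adgrl2 stood at 9.39 and 8.37 times the neuron-restricted list. Flrt2 stood there at 2.59 and 3.16 times the list, and Adgrl3 at 2.12 and 2.71 times. Multiples of the list in the HET libraries are not independent of genotype, since the list was lower there. WT replicate 1 gave 235 of the 454 endothelial nuclei. Without WT replicate 2 or without HET replicate 1, Tenm3 (-0.86 and -1.05) and Adgrl3 (-0.55 and -0.52) were no longer called. DESeq2 called 2, and removal of nuclei with high doublet scores left 3, Tenm3 and Tenm4 being lost. That removal took the UMIs in WT replicate 2 from 39 to 21 for Tenm3 and from 25 to 13 for Tenm4. In WT replicate 1 they went from 50 to 49 and from 49 to 46, and the HET libraries kept theirs. For these alternatives the share of all genes called is not given here.

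In oligodendrocytes 6 members were tested (all but Adgrl1, Adgrl2, Flrt1 and Flrt3), all with a negative fold change, and 1 was called, where 4.01% of 3463 genes were called lower in HET. Tenm1 was at 124 and 121 CPM in the WT and 43.1 and 61.2 CPM in the HET libraries (-1.27 ± 0.21, edgeR adjusted p = 0.13). WT replicate 2 gave 1255 of the 2377 nuclei. More members were called in some fits with 1 library left out, for which the share of all genes called is not given here. Over the 13 alternatives the log2 fold change of Tenm1 ranged from -1.49 to -1.04. Tenm3, the teneurin farthest above the list there, was at 267 and 478 against 328 and 263 CPM, with overlapping groups (-0.36 ± 0.26, edgeR adjusted p = 0.86). Flrt2 (-1.13 ± 0.42), Tenm2 (-0.55 ± 0.22), Adgrl3 (-0.41 ± 0.16) and Tenm4 (-0.34 ± 0.19) were not called either. Of these, Flrt2 passed the filter through WT alone. In mural cells 1 of the 7 members tested (all but Adgrl1, Flrt1 and Flrt3) was called, where 0.9% of 6334 genes were called lower. It was Tenm2, at 459 and 469 against 118 and 266 CPM (-1.23 ± 0.36, edgeR adjusted p = 0.37), and it rested on 8 to 74 UMIs per library. The call was lost under 4 of 13 alternatives, with DESeq2 (-1.26), without WT replicate 1 (-1.23), without WT replicate 2 (-1.22) and without HET replicate 1 (-0.82), and without HET replicate 2 the log2 fold change was -1.98.

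Whether the genotype difference in a class departed from that in all neurons of the same libraries was tested directly, with the library as a term of the model, a test chosen after the data were seen. Of 26 such comparisons 12 had an unadjusted p under 0.01. They were 3 of 6 in oligodendrocytes, where 6.15% of all genes passed, 4 of 6 in microglia (8.22%), 4 of 7 in endothelial cells (7.48%) and 1 of 7 in mural cells (1.47%). None had an adjusted p under 0.05, the lowest being 0.052 for Tenm1 in endothelial cells, where the log2 difference in the class minus that in neurons was -2.23 ± 0.45 (SE; edgeR quasi-likelihood test). Among the 12, Tenm1 in microglia and endothelial cells and Flrt2 in oligodendrocytes passed the filter on low counts through WT alone. An exact permutation test of a single value over 2 and 2 libraries cannot give a two-sided p below 0.333, and the model p-values measure only the spread between these libraries.

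The neuron-restricted list moved with these results. Its median log2 fold change, HET minus WT, was -1.10 in microglia (6 of 8 tested genes called, all lower), -1.52 in endothelial cells (6 of 6), -0.77 in oligodendrocytes (5 of 8) and -0.55 in mural cells (1 of 9), while the median over all genes tested was 0.02, 0.00439, 0.00248 and 0.00236. The medians of the members in the same classes were -1.13, -1.17, -0.48 and -0.34. In excitatory and inhibitory neurons the median of the list was 0.07 and -0.03. Whether the differences of the members follow from those of the list was not tested.

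Known partners of these proteins and other synaptic adhesion genes were counted in the same way. Both lists were likewise chosen with earlier results of these data known, so their counts beside all genes are descriptions. Of 14 partner genes, 0 of 11 tested were called in excitatory and 0 of 11 in inhibitory neurons. In microglia 5 of 5 tested were called lower in HET, where 7.92% of all genes were. Among them were the netrin receptor gene Unc5d (log2 fold change -1.24 ± 0.24), the neurexin gene Nrxn3 (-1.10 ± 0.25) and Robo1 (-1.01 ± 0.28). In endothelial cells 5 of 8 were called lower (7.11% of all genes), among them Nrxn3 (-1.44 ± 0.24) and Unc5d (-1.25 ± 0.33). In mural cells the netrin receptor gene Unc5c was lower at the study threshold (-1.87 ± 0.60), with an edgeR adjusted p of 0.507. Of 32 other synaptic adhesion genes, 0 of 30 tested were called in excitatory and 0 of 27 in inhibitory neurons. In microglia 9 of 14 were called lower in HET, with Lrrtm3 (-1.49 ± 0.42), Ntng1 (-1.47 ± 0.44) and Lrrtm4 (-1.17 ± 0.21) changed most among them. In endothelial cells 11 of 12 were called lower, with Lrrtm3 (-2.32 ± 0.52) first. In oligodendrocytes 3 of 16 were (4.01% of all genes), Lrfn5, Clstn2 and Ntng1, and in mural cells 2 of 14 (0.9% of all genes), Nlgn1 and Ptprd. None of either list was called higher in HET in any of these classes.

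**Figure D5:**
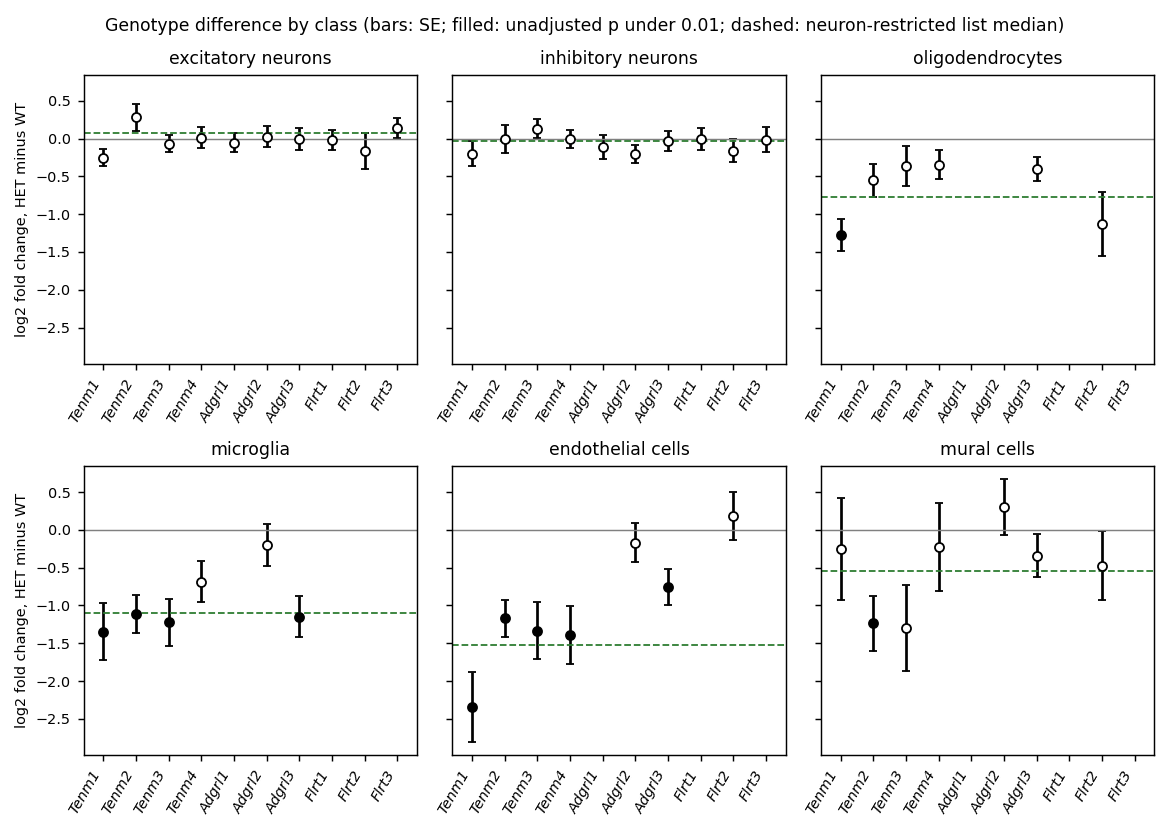
Points give the log2 fold change, HET minus WT, of each member that passed the filter on low counts, with bars of 1 SE and filled points for an unadjusted edgeR p under 0.01, in 6 classes. The dashed green line is the median of those of the 14 neuron-restricted genes that passed the same filter in the class. Members lie between -0.25 and 0.28 in both neuron classes. In microglia they lie near the line, at medians of -1.13 and -1.10, except that Adgrl2 (-0.20) and Tenm4 (-0.68) lie above it. In endothelial cells all members tested but Tenm1 lie above the line, with Flrt2 (0.19) and Adgrl2 (-0.17) the farthest.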

How the data were processed

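Nuclei from 4 brains were sequenced with 10x Genomics 3′ v3.1 chemistry. The deposited values are raw UMI counts per gene and nucleus, which the authors made with Cell Ranger 5.0.0 on the mm10 build. Whether intronic reads were counted is not given in the sources used here. The 4 libraries held 9905 to 16415 nuclei and 89436507 to 112226479 UMIs as deposited.

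Nuclei were filtered on UMIs (500 to 50000), genes (over 200) and mitochondrial share (under 5%), centred and scaled within library, and clustered with scanpy 1.11.5 and leidenalg 0.10.2 (resolution 1, 37 clusters), with 176 genes, the 10 members among them, left out. Clusters were named from marker lists, so cell types are rebuilt here and may differ from the study's. Scrublet scores were computed per library. Clusters with high scores in over 50% of their nuclei stayed unnamed (19 clusters, 3131 of the 4329 unnamed nuclei), among them 1 of 402 nuclei that held 10 microglia markers, and the remaining nuclei with high scores were removed as an alternative. The members and the gene lists were chosen with earlier results of these data known.

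Counts were summed per library and class or neuron type. CPM scales a gene's UMIs to 1000000 UMIs of that sum. Genotypes were compared with edgeR 4.0.16 in R 4.3.3 (quasi-likelihood test, TMM scaling, HET minus WT) on genes detected in 10% or more of the WT or HET nuclei and with 10 or more counts, called at an unadjusted p under 0.01, with Benjamini-Hochberg adjustment over all genes tested. Tenm1 in microglia and endothelial cells and Flrt2 in oligodendrocytes reached the 10% in WT alone. On simulated counts, drawn with a single dispersion for all genes of a class, this test recovered 60% of 2-fold and 99% of 4-fold changes in microglia. In endothelial cells it recovered 40% and 91%. The changed genes had a mean of 10 or more counts, and no rate was worked out for a single member. In each class the members tested and called were counted, with values given for the called members and for some of the others. Of each gene list, up to 3 called genes with the largest change per class were named. Wilson intervals and limits for 0 counts cover counting error only.

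Alternatives were the likelihood-ratio test, DESeq2 1.42.0, 2 other scalings, no detection filter, a block by replicate number, leaving out each library, a minimum of 1000 UMIs, removal of high Scrublet scores and resolution 0.5. Replicate numbers were not taken as pairs in the main test. Deviations of same-numbered libraries correlated at -0.10 in excitatory and -0.05 in inhibitory neurons. They correlated at -0.03 in microglia, 0.02 in endothelial cells and -0.05 in oligodendrocytes. With 2 libraries per genotype, these values cannot show whether same-numbered libraries were prepared together. Oligodendrocyte precursors and unnamed nuclei were left out of the genotype tests of members. Results for 1 partner gene and 1 neuron type are not reported here.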

Additional observations from a re-analysis of the deposited data

Results flagged for a closer look

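For 12 of 26 comparisons the difference between HET and WT in a non-neuronal class departed from that in all neurons of the same libraries at an unadjusted p under 0.01 (edgeR quasi-likelihood test, adjusted p from 0.052 to 0.36). Of all genes, 6.15% passed in oligodendrocytes, 8.22% in microglia, 7.48% in endothelial cells and 1.47% in mural cells. The test was chosen after the data were seen. Each value is the log2 difference in the class minus that in neurons. In oligodendrocytes it was -1.09 for Tenm1, -0.75 for Tenm2 and -1.22 for Flrt2. In microglia it was -1.12 for Tenm1, -1.32 for Tenm2, -1.11 for Tenm3 and -1.17 for Adgrl3. In endothelial cells it was -2.23 for Tenm1, -1.47 for Tenm2, -1.37 for Tenm3 and -1.56 for Tenm4. In mural cells it was -1.53 for Tenm2. In these 4 classes the summed level of the neuron-restricted list was lower in both HET libraries than in both WT libraries, and its part in these values was not tested. Tenm1 in microglia and endothelial cells and Flrt2 in oligodendrocytes passed the filter on low counts through WT alone.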

How the results depend on the processing

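Leaving out 1 library in turn moved the number of members called from 1 to between 1 and 4 in oligodendrocytes, from 4 to between 0 and 4 in microglia (0 without HET replicate 1), from 5 to between 3 and 5 in endothelial cells and from 6 to between 5 and 11 over the neuron types, and left it at 0 in excitatory and inhibitory neurons. DESeq2 called 2 members in microglia and 2 in endothelial cells, removal of high Scrublet scores left 3 in endothelial cells, and resolution 0.5 gave 2 calls over the neuron types. A replicate block changed no count: with the numbers as pairs 0, 0, 1, 4 and 5 members were called in excitatory neurons, inhibitory neurons, oligodendrocytes, microglia and endothelial cells and 6 over the neuron types. A crossed pairing, added after seeing the data, gave 8 over the neuron types and the same counts elsewhere. Tenm1 and Tenm2 in endothelial cells and Tenm1 in oligodendrocytes were called under all 13 alternatives. The 1 call in mural cells, Tenm2, was lost under 4 of them. The share of all genes called under each alternative is not given here, so these counts do not compare the members with other genes. The causes of these changes were not tested.

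The log2 fold changes that changed sign under an alternative were all of members that had not been called. With scaling by library totals alone the log2 fold change became -0.026 for Tenm4 and -0.011 for Adgrl2 in excitatory neurons. With no detection filter the log2 fold change became 0.023 for Adgrl3 and 0.018 for Flrt1 in excitatory neurons and 0.012 for Tenm2, 0.016 for Tenm4, 0.011 for Flrt1 and 0.0071 for Flrt3 in inhibitory neurons. With high Scrublet scores removed the log2 fold change became 0.0052 for Flrt1 in excitatory neurons and 0.035 for Flrt1 and 0.019 for Flrt3 in inhibitory neurons. With resolution 0.5 the log2 fold change became 0.055 for Flrt1 in excitatory neurons. With DESeq2 the log2 fold change became 0.0019 for Tenm2 and 0.0012 for Tenm4 in inhibitory neurons. With the size factors of DESeq2 the log2 fold change became 0.0019 for Tenm2 and 0.0013 for Tenm4 in inhibitory neurons. With nuclei of at least 1000 UMIs the log2 fold change became 0.027 for Adgrl2 in microglia. In excitatory neurons, over the left-out libraries, it ranged from -0.14 to 0.0026 for Tenm3, from -0.10 to 0.13 for Tenm4, from -0.18 to 0.10 for Adgrl1, from -0.13 to 0.17 for Adgrl2, from -0.15 to 0.12 for Adgrl3, from -0.13 to 0.12 for Flrt1 and from -0.40 to 0.14 for Flrt2. In inhibitory neurons, over the left-out libraries, it ranged from -0.24 to 0.21 for Tenm2, from -0.093 to 0.087 for Tenm4, from -0.29 to 0.10 for Adgrl1, from -0.16 to 0.092 for Adgrl3, from -0.093 to 0.10 for Flrt1, from -0.33 to 0.0024 for Flrt2 and from -0.18 to 0.17 for Flrt3. In oligodendrocytes, over the left-out libraries, it ranged from -0.69 to 0.14 for Tenm3. In microglia, over the left-out libraries, it ranged from -0.41 to 0.043 for Adgrl2. In endothelial cells, over the left-out libraries, it ranged from -0.55 to 0.67 for Flrt2. In mural cells, over the left-out libraries, it ranged from -0.45 to 0.14 for Tenm1, from -0.86 to 0.0012 for Adgrl3 and from -0.75 to 0.070 for Flrt2.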
